A study of Mus musculus with 16 samples.

Results

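The subunit genes of the vacuolar proton pump (V-ATPase) were followed in mouse bone marrow-derived dendritic cells raised at normal or high salt, with or without the bacterial product LPS. Members were all genes read by a probe set that the array's annotation maps to exactly 1 symbol beginning with Atp6v0, Atp6v1 or Atp6ap, and each gene was read on its probe set with the highest mean signal. The rule gave 24 genes of the 19272 that had such a probe set. Of these, 8 encode the membrane sector V0, 13 the catalytic sector V1 and 3 the accessory proteins. A filter on low signal asked for at least 4 arrays above the median of all values in the table, 6.83 on the log2 scale, and 18 of the 24 genes passed it (7 of V0, 9 of V1 and 2 accessory), each above that level on 16 of 16 arrays. They were tested among the 10236 genes that passed. Atp6v0c, the main proteolipid of the V0 ring, is not analysed here. Tcirg1, which encodes the a3 subunit of V0, does not carry the family's symbol and is described beside the members.

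Cells were grown from C57BL/6 bone marrow in medium with 10 ng/mL of the cytokine GM-CSF, which all 4 groups received. They developed at 290 mOsm/L, or at 450 mOsm/L, where NaCl was added starting at day 3. They were harvested at day 7 and replated for 6 h without LPS or with 10 ng/mL LPS. The groups are named 290 mOsm, 290 mOsm with LPS, 450 mOsm and 450 mOsm with LPS, and each held 4 arrays, 1 from each of 4 mice. The labels do not state whether the LPS-treated and untreated cells of a mouse came from 1 dish.

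The pump splits ATP in its V1 sector, which lies on the cytosolic face, and uses the energy to turn a ring in the V0 sector that carries protons into the lumen of endosomes, lysosomes and other compartments. V1 can leave V0 and bind it again, and this assembly is a known point of control. In dendritic cells the acidity it creates drives the proteases that cut antigen for MHC class II, and changes of lysosomal pH during maturation by LPS are a known feature of these cells. The transcription factor Tfeb and its relatives bind promoters of many lysosomal genes, pump subunits among them, at an element with the core CACGTG.

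The arrays had median log2 signals from 6.78 to 6.93, and the lowest median correlation of an array with the others of its group was 0.9897. Of 14 dendritic cell markers, 12 were tested. The integrin gene Itgax had group means from 11.41 to 12.13 and the class II gene H2-Aa from 13.12 to 13.35, whereas Cd209a stayed below the filter level in all 4 groups and Flt3 in every group but 290 mOsm with LPS. Clec10a was below that level in every group but 450 mOsm without LPS, and Zbtb46 at 290 mOsm without LPS. With salt 2 of the 12 were higher and 2 lower without LPS, beside 20.6% and 23.7% of all tested genes. In LPS-treated cells 3 were higher and 2 lower, beside 16.8% and 21.8%. The summed signal of 16 neutrophil markers was lower in both salt groups. Its log2 ran from 14.78 to 15.17 at 290 mOsm, 15.19 to 15.51 at 290 mOsm with LPS, 12.53 to 12.72 at 450 mOsm and 13.96 to 14.04 at 450 mOsm with LPS. The largest signal in the sum at 450 mOsm was Mmp8, with a mean of 12.12, beside 12.45 at 290 mOsm. At 450 mOsm with LPS it was Lcn2, with 13.41, beside 7.96 without LPS. With salt 15 of the 16 markers were lower and 0 higher without LPS, and 14 lower and 0 higher with LPS. Over all tested genes 23.7% and 21.8% were lower. At 450 mOsm, without or with LPS, 8 of the 16 had a group mean below the filter level, so the size of their changes is not resolved. The part of this difference in the salt results was not tested. In RNA from whole cultures, fewer cells of a type and less RNA per cell cannot be told apart.

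The 6 genes that failed the filter had 0 arrays above its level and are isoforms known mainly from other tissues, apart from Atp6ap1l, a relative of the accessory gene Atp6ap1. Over the 16 arrays the kidney and inner ear isoform Atp6v0a4 ran from 5.50 to 5.84, the B1 isoform Atp6v1b1 from 6.31 to 6.74, the C2 isoform Atp6v1c2 from 5.62 to 6.21, the testis isoform Atp6v1e2 from 6.32 to 6.76, the G3 isoform Atp6v1g3 from 5.14 to 5.95 and Atp6ap1l from 4.10 to 4.40. These genes were dim in every group and entered no test. Atp6v0e2, which passed, was close to the level too, with values from 6.85 to 7.49.

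Promoter windows, 250 bases up to the start site, were found in a RefSeq table (GRCm38.p6) for 17 of the 24 members, 12 of them tested. CACGTG, which reads the same on both strands, was present in 2 of these 17, Atp6v0b and Atp6v1a, and in 6.86% of the 27025 genes with a window. The longer TCACGTGA, also a palindrome and holding the shorter word, was present in Atp6v1a and in 0.907% of genes. Atp6v0b had 2 matches, whose first bases lay 36 and 18 bases before the start site, and Atp6v1a had 1, at 131. The sequences are given 5′ to 3′ for both promoters with a match, with CACGTG in capitals, and for those of Atp6v0a1 and Atp6v1e1, which have no match and whose transcripts were the most strongly lowered and the most strongly raised by LPS at 290 mOsm among the tested members. They lie at chr4:117887330-117887579 on the minus strand for Atp6v0b, at chr16:44139260-44139509 on the minus strand for Atp6v1a, at chr11:101010148-101010397 on the plus strand for Atp6v0a1 and at chr6:120822699-120822948 on the minus strand for Atp6v1e1.
Atp6v0b: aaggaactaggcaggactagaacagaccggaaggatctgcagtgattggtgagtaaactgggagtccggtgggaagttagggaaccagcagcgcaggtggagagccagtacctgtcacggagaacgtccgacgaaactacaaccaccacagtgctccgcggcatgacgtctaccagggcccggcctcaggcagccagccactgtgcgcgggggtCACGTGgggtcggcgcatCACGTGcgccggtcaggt
Atp6v1a: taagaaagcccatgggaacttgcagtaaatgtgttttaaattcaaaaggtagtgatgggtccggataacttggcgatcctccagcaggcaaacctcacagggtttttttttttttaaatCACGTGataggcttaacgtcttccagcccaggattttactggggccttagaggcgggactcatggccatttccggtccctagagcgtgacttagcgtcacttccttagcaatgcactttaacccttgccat
Atp6v0a1: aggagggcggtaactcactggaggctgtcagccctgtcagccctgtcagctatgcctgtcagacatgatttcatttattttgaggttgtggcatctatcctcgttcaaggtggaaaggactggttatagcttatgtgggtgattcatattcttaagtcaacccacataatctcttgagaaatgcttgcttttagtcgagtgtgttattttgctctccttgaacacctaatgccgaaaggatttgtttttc
Atp6v1e1: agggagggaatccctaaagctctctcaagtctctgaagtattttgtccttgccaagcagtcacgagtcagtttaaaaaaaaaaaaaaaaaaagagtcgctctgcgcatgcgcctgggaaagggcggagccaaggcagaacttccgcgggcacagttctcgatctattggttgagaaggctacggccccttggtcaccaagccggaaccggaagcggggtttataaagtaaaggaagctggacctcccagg
A match is a description of these letters and not a measured binding site. The windows of Atp6v0a2, Atp6v0d2, Atp6v1b2, Atp6v1c1, Atp6v1g1 and Atp6v1h are not analysed here.

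With LPS more pump genes were lower than higher at either osmolarity, as was the case over all tested genes. At 290 mOsm 11 of the 18 tested genes were lower with LPS and 3 were higher (limma, Benjamini-Hochberg adjusted p under 0.05 over all genes tested), where 47.1% of all tested genes were lower and 26.4% higher. At 450 mOsm 13 were lower and 3 higher, where 45.3% of all tested genes were lower and 26.4% higher. The median log2 change of the 18 was -0.13 at 290 mOsm, beside -0.11 over all genes tested, and -0.21 at 450 mOsm, beside -0.09. The same 3 V1 genes were higher at both osmolarities, Atp6v1d, Atp6v1e1 and Atp6v1h, and 10 genes were lower at both. These LPS comparisons use different arrays of the same 4 mice. Because the median of all genes lay below 0, and a cyclic loess scaling moved it to 0.02 at 290 mOsm and 0.03 at 450 mOsm, falls near 0.11 are no larger than that of the typical gene. With that scaling 8 of the 18 genes were lower and 4 higher at 290 mOsm, and 9 were lower and 3 higher at 450 mOsm.

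In the V0 sector the a subunits hold the proton path and direct the pump to its compartment. Atp6v0a1 had log2 signals of 12.40, 12.45, 12.38 and 12.56 in mice 1 to 4 at 290 mOsm and of 11.25, 11.25, 11.39 and 11.37 with LPS. At 450 mOsm the same mice had 11.67, 11.65, 11.83 and 11.84, and with LPS 10.83, 10.89, 10.96 and 10.92. All 4 groups were separate, with untreated cells at 290 mOsm highest and cells given both salt and LPS lowest. The mean fell with LPS by 1.13 ± 0.06 on the log2 scale at 290 mOsm (SE, 2.19-fold lower, limma adjusted p = 5.85e-12) and by 0.85 ± 0.06 at 450 mOsm (1.8-fold lower, limma adjusted p = 3.19e-10).

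The a2 isoform gene gave another picture. Atp6v0a2 stood at 9.91, 9.91, 9.81 and 9.95 at 290 mOsm and at 9.96, 9.84, 9.86 and 9.98 with LPS. At 450 mOsm it stood at 10.29, 10.24, 10.13 and 10.20, and with LPS at 9.89, 9.90, 9.84 and 9.87. The 450 mOsm group without LPS was above every other array, and the other 3 groups overlapped. With LPS the change was 0.01 ± 0.05 at 290 mOsm (limma adjusted p = 0.849), and at 450 mOsm the gene fell by 0.34 ± 0.05 (limma adjusted p = 6.88e-06). Tcirg1, the a3 gene, kept between 11.91 and 12.10 on all 16 arrays, and its LPS changes of 0.01 and 0.06 did not pass the test, although the one at 450 mOsm did with cyclic loess (0.13).

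The d subunits couple the V0 ring to the central stalk, and the d2 isoform is known from osteoclasts, where it also takes part in cell fusion. Atp6v0d2 had signals of 13.02, 12.95, 13.07 and 12.96 at 290 mOsm and of 11.98, 11.82, 12.07 and 11.95 with LPS. At 450 mOsm the signals were 12.61, 12.62, 12.71 and 12.74, and with LPS 11.35, 11.27, 11.51 and 11.58. As for Atp6v0a1, no group overlapped another. LPS lowered it by 1.04 ± 0.07 at 290 mOsm (2.06-fold, limma adjusted p = 1.4e-10) and by 1.24 ± 0.07 at 450 mOsm (2.37-fold, limma adjusted p = 1.07e-11). Of the members, Atp6v0a1 and Atp6v0d2 passed 2-fold at 290 mOsm and Atp6v0d2 did at 450 mOsm. The ubiquitous isoform Atp6v0d1 fell less, by 0.37 ± 0.05 (limma adjusted p = 1.03e-06) and 0.50 ± 0.05 (limma adjusted p = 2.16e-08). Its signals were 11.25 ± 0.012 at 290 mOsm and 10.87 ± 0.085 with LPS, and 11.24 ± 0.045 and 10.74 ± 0.031 at 450 mOsm (SD, n = 4), with treated and untreated arrays apart.

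Of 8 osteoclast markers 6 were tested. With LPS 1 was higher and 4 were lower at 290 mOsm, with a median change of -0.43, and 1 was higher and 3 were lower at 450 mOsm, with a median of -0.21. With salt 2 were higher and 3 lower without LPS, with a median of -0.38, and 1 was higher and 3 were lower with LPS, with a median of -0.15. Over all tested genes LPS gave 26.4% higher and 47.1% lower at 290 mOsm, and 26.4% and 45.3% at 450 mOsm. Salt gave 20.6% higher and 23.7% lower without LPS, and 16.8% and 21.8% with LPS. The fusion gene Dcstamp had group means of 11.04 at 290 mOsm, 10.35 with LPS, 10.08 at 450 mOsm and 9.70 with LPS, and Ocstamp had 9.70, 7.84, 8.13 and 7.73 in that order. The protease gene Ctsk was at 8.38 and 8.25 at 290 mOsm and at 9.18 and 9.14 at 450 mOsm. Calcr and Oscar stayed below the filter level in all 4 groups. The log2 of the summed signal of the list ran from 13.001 to 13.09 at 290 mOsm and from 12.75 to 12.82 with LPS, and from 12.67 to 12.81 and 12.60 to 12.68 at 450 mOsm. Its part in the values of Atp6v0d2 was not tested.

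The remaining V0 genes moved little. The proteolipid gene Atp6v0b fell by 0.15 ± 0.05 (limma adjusted p = 0.00964) and 0.16 ± 0.05 (limma adjusted p = 0.00493), and Atp6v0e, a small membrane subunit, by 0.11 ± 0.04 (limma adjusted p = 0.0213) and 0.12 ± 0.04 (limma adjusted p = 0.0133). These 4 falls are near that of the median gene and were lost with cyclic loess, to -0.04 and -0.07 for Atp6v0b and to -0.00 and -0.03 for Atp6v0e. Those of Atp6v0b were also lost without mouse 1 (adjusted p = 0.05 and 0.0605) or mouse 2 (0.0614 and 0.0608), and those of Atp6v0e without mouse 1 (0.0953 and 0.0608) or mouse 4 (0.083 and 0.0819), and at 290 mOsm without mouse 3 (0.0775). The isoform Atp6v0e2 changed by 0.01 at 290 mOsm and fell by 0.25 ± 0.07 at 450 mOsm (limma adjusted p = 0.00395). Thus 5 of the 7 tested V0 genes fell at 290 mOsm and 7 of 7 at 450 mOsm, and 0 rose. Over all tested genes 47.1% and 45.3% were lower, and 26.4% were higher at each. The V0 counts include Atp6v0b and Atp6v0e, whose falls were lost with cyclic loess. They leave out Tcirg1, the a3 gene of V0, whose LPS changes of 0.01 and 0.06 did not pass.

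In the V1 sector the head that splits ATP is built from A and B subunits. Atp6v1a, the catalytic A subunit, had signals of 11.82, 11.71, 11.87 and 11.81 at 290 mOsm and of 11.15, 11.09, 11.23 and 11.33 with LPS. At 450 mOsm they were 11.70, 11.74, 11.75 and 11.91, and with LPS 11.27, 11.20, 11.21 and 11.34. The LPS-treated arrays lay below the untreated ones at both osmolarities, and the salt groups overlapped. It fell by 0.60 ± 0.06 (1.52-fold, limma adjusted p = 5.53e-08) and 0.52 ± 0.06 (1.44-fold, limma adjusted p = 3.75e-07).

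Atp6v1b2 encodes the B subunit isoform of most tissues. It had signals of 12.76, 12.79, 12.75 and 12.74 at 290 mOsm and of 12.52, 12.44, 12.47 and 12.49 with LPS. At 450 mOsm they were 12.64, 12.69, 12.68 and 12.70, and with LPS 12.18, 12.11, 12.21 and 12.20. The 4 groups did not overlap, and the gap between the untreated groups was the narrowest. LPS lowered it by 0.28 ± 0.04 (limma adjusted p = 6.92e-06) and by 0.50 ± 0.04 (limma adjusted p = 3.04e-09).

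The C and H subunits sit where V1 meets V0 and are tied to its release. Atp6v1c1 stood at 11.05, 10.93, 10.83 and 10.81 at 290 mOsm and at 10.28, 10.26, 10.13 and 10.14 with LPS. At 450 mOsm it stood at 10.58, 10.42, 10.70 and 10.62, and with LPS at 10.24, 10.13, 10.25 and 10.24. The untreated groups were apart, with 290 mOsm higher, and the LPS groups overlapped. It fell with LPS by 0.70 ± 0.07 at 290 mOsm (1.63-fold, limma adjusted p = 2.09e-08) and by 0.36 ± 0.07 at 450 mOsm (limma adjusted p = 7.79e-05). Atp6v1h went the other way and rose by 0.15 ± 0.05 (limma adjusted p = 0.0187) and 0.23 ± 0.05 (limma adjusted p = 0.00103). The rise of Atp6v1h at 290 mOsm was lost without mouse 1 (adjusted p = 0.0761), mouse 2 (0.0527) or mouse 4 (0.0512), without the array of mouse 3 at 290 mOsm (0.0578) and with a further quantile normalization (0.112).

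The central stalk (D and F) turns inside the head, and the outer stalks (E and G) hold the head still. The D subunit gene Atp6v1d rose with LPS by 0.37 ± 0.06 at 290 mOsm (1.29-fold, limma adjusted p = 4.55e-05) and 0.46 ± 0.06 at 450 mOsm (1.37-fold, limma adjusted p = 3.97e-06), from signals of 10.26 to 10.39 to signals of 10.61 to 10.86 and from 9.96 to 10.19 to 10.50 to 10.64. Atp6v1e1 rose by 0.42 ± 0.05 (1.33-fold, limma adjusted p = 6.95e-07) and 0.50 ± 0.05 (1.41-fold, limma adjusted p = 6.04e-08). Its signals ran from 11.20 to 11.33 and from 11.61 to 11.79 with LPS at 290 mOsm, and from 11.07 to 11.17 and 11.56 to 11.70 at 450 mOsm. In both genes the treated arrays were all above the untreated arrays of the same osmolarity, and these 4 rises passed the test under every alternative run.

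Their stalk partners did not rise. Atp6v1f fell by 0.11 ± 0.05 at 290 mOsm (limma adjusted p = 0.0388) and changed by -0.10 at 450 mOsm (adjusted p = 0.0604). Its fall at 290 mOsm was lost without any 1 of the 4 mice (adjusted p from 0.052 to 0.196) and had the opposite sign with cyclic loess, at 0.02. Atp6v1g1 changed by -0.06 at 290 mOsm (adjusted p = 0.347) and fell by 0.14 ± 0.05 at 450 mOsm (limma adjusted p = 0.0289), a call that was lost without mouse 2, 3 or 4 (adjusted p = 0.14, 0.0647 and 0.164) and on its second probe set alone (0.0504). Atp6v1g2, an isoform known from neurons, passed the test in none of the 5 contrasts and ran from 7.92 to 8.25 over all arrays. In all, 4 of the 9 tested V1 genes fell at 290 mOsm and 4 at 450 mOsm, and 3 rose at each. Over all tested genes 47.1% and 45.3% were lower, and 26.4% were higher at each, so the V1 counts do not stand out from these shares.

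The accessory proteins bind V0 and take part in its assembly and sorting. Atp6ap1 (Ac45) had signals of 12.16, 12.07, 12.12 and 12.10 at 290 mOsm and of 11.55, 11.47, 11.64 and 11.69 with LPS. At 450 mOsm they were 12.25, 12.27, 12.13 and 12.28, and with LPS 11.69, 11.57, 11.61 and 11.68. Treated arrays were below untreated ones throughout, and the salt groups overlapped. It fell by 0.53 ± 0.05 (1.44-fold, limma adjusted p = 6.88e-08) and 0.59 ± 0.05 (1.51-fold, limma adjusted p = 1.37e-08).

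Atp6ap2, the (pro)renin receptor, had signals of 10.89, 10.79, 10.74 and 10.71 at 290 mOsm and of 10.45, 10.36, 10.43 and 10.31 with LPS. At 450 mOsm they were 10.91, 10.85, 10.96 and 10.85, and with LPS 10.79, 10.75, 10.78 and 10.74. The group at 290 mOsm with LPS was below every other array. LPS lowered it by 0.39 ± 0.05 at 290 mOsm (limma adjusted p = 1.04e-06) and by 0.13 ± 0.05 at 450 mOsm (limma adjusted p = 0.0262). The smaller fall was lost without mouse 1, 2 or 3 (adjusted p = 0.0559, 0.0723 and 0.115) and shrank to -0.02 with cyclic loess.

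**Figure D1:**
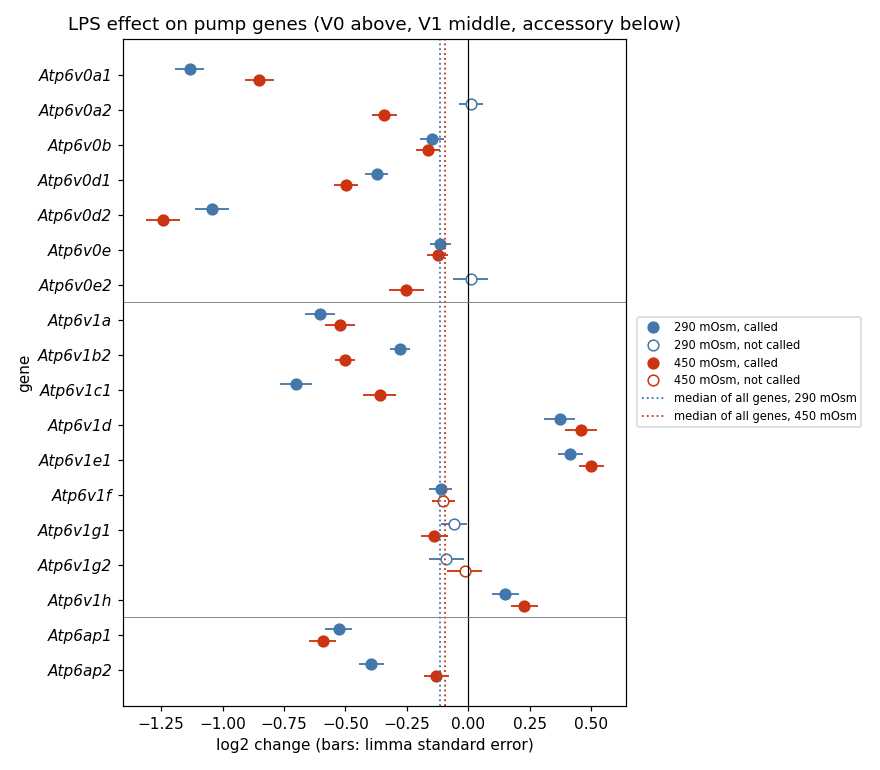
Log2 change with LPS of the 18 tested pump genes at 290 mOsm (blue) and 450 mOsm (red), with limma standard errors. Filled points passed the test, dotted lines mark the median change of all 10236 tested genes, and Atp6v1d, Atp6v1e1 and Atp6v1h are the genes to the right of 0 that passed.

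**Figure D2:**
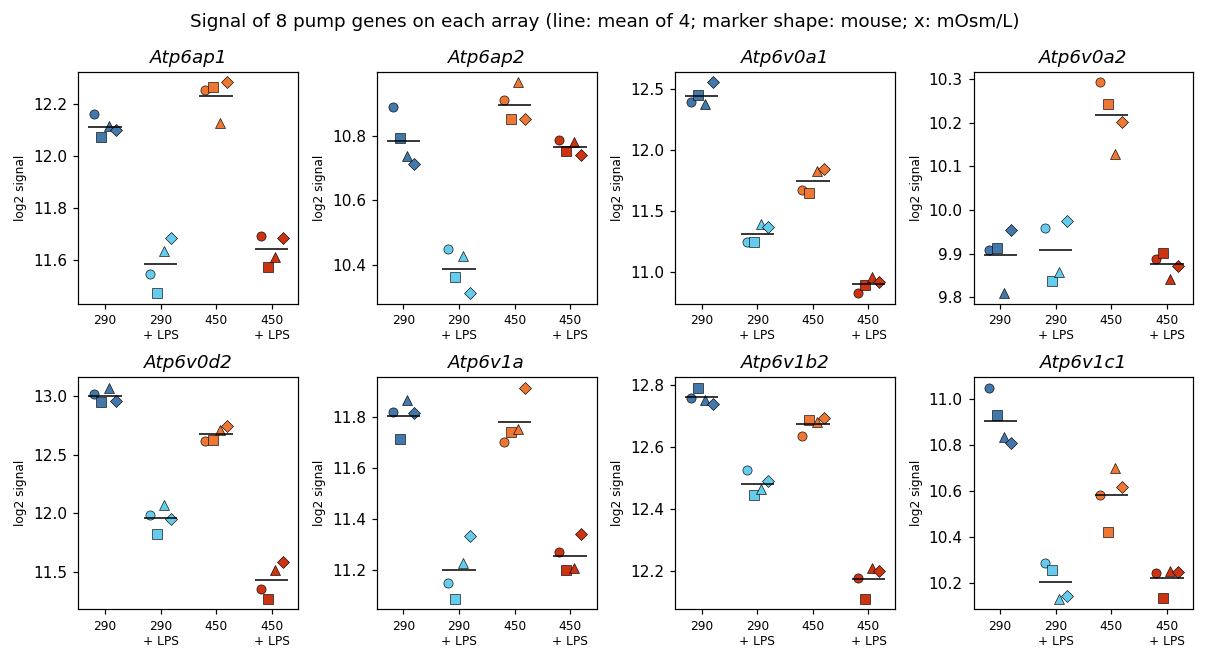
Log2 signal of 8 pump genes on each of the 16 arrays by group, with a line at the mean of 4 and 1 marker shape per mouse, on a separate axis for each gene. Atp6v0a1 and Atp6v0d2 show 4 separate groups, and for Atp6v0a2 the 450 mOsm group without LPS stands above all other arrays.

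High salt moved fewer pump genes than LPS did, as it did over all tested genes. No pump gene changed with salt by more than 1.62-fold. Without LPS 2 of the 18 genes were higher at 450 mOsm and 6 were lower, where 20.6% of all tested genes were higher and 23.7% lower. With LPS 1 was higher and 4 were lower, where 16.8% of all tested genes were higher and 21.8% lower. The median change of the 18 was -0.02 without LPS and -0.03 with LPS, beside 0.00 over all tested genes in both. None of the 18 reached 2-fold in either comparison. Atp6v0a1 and Atp6v0d2 were lower in both. These comparisons use different arrays of the same 4 mice, and each shares its arrays with the LPS comparisons above. Without mouse 4, 1 gene was higher and 3 were lower in the comparison without LPS.

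Within V0, the signals listed above give a fall of Atp6v0a1 by 0.70 ± 0.06 without LPS (1.62-fold lower, limma adjusted p = 5.57e-08) and by 0.41 ± 0.06 with LPS (1.33-fold, limma adjusted p = 2.61e-05), lower in 4 of 4 mice each time. Atp6v0d2 fell by 0.33 ± 0.07 (1.25-fold, limma adjusted p = 0.000963) and by 0.53 ± 0.07 (1.44-fold, limma adjusted p = 8.88e-06), also in 4 of 4 mice. Atp6v0a2 rose without LPS by 0.32 ± 0.05 (1.25-fold, limma adjusted p = 6.91e-05), in 4 of 4 mice, and changed by -0.03 with LPS (adjusted p = 0.635). A second probe set for Atp6v0a2 gave 0.22 (limma adjusted p = 0.0029) and 0.01 (adjusted p = 0.944). Thus, without LPS, the a1 transcript was lower and the a2 transcript higher with salt in RNA of the same cultures, while Tcirg1, the a3 gene, changed by -0.02 and, with LPS, by 0.02, neither past the test.

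Atp6v0e2 rose without LPS by 0.28 ± 0.07 (limma adjusted p = 0.00391) and by 0.17 without mouse 4, where it did not pass (adjusted p = 0.0596). Atp6v0d1 fell with LPS by 0.13 ± 0.05 (limma adjusted p = 0.0331), a call lost without any 1 of the 4 mice (adjusted p from 0.0631 to 0.172). Atp6v0b and Atp6v0e changed by -0.03 to 0.03 in both comparisons and did not pass.

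In V1 the calls differed between the salt comparisons. Without LPS Atp6v1c1 fell by 0.33 ± 0.07 (1.25-fold, limma adjusted p = 0.000742), and with LPS its change was 0.02 (adjusted p = 0.873). Atp6v1b2 changed by -0.09 without LPS (adjusted p = 0.101) and fell by 0.31 ± 0.04 with LPS (1.24-fold, limma adjusted p = 1.19e-05). Atp6v1d, Atp6v1e1 and Atp6v1h, the genes that LPS raised, were lower at 450 mOsm without LPS, by 0.21 ± 0.06 (limma adjusted p = 0.0141), 0.17 ± 0.05 (limma adjusted p = 0.0139) and 0.19 ± 0.05 (limma adjusted p = 0.00996). Atp6v1h was lower in 3 of 4 mice and the other 2 in 4 of 4. These 3 calls were lost with cyclic loess (adjusted p = 0.0506, 0.0912 and 0.0586) and without mouse 4 (0.0926, 0.0851 and 0.0688), those of Atp6v1e1 and Atp6v1h also without mouse 1 (0.0584 and 0.085), that of Atp6v1h without mouse 2 (0.106), that of Atp6v1d without the array of mouse 4 at 450 mOsm (0.0554), and that of Atp6v1e1 with a further quantile normalization (0.0903). Since they use the untreated 290 mOsm or 450 mOsm arrays too, the LPS rises and these falls are not independent. With LPS the 3 genes changed by -0.12, -0.08 and -0.11 and did not pass. The catalytic gene Atp6v1a changed by -0.03 and 0.06, and Atp6v1f, Atp6v1g1 and Atp6v1g2 by -0.11 to 0.03, none past the test.

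Of the accessory genes Atp6ap2 rose with salt in the presence of LPS by 0.38 ± 0.05 (1.3-fold, limma adjusted p = 1.07e-05, higher in 4 of 4 mice) and changed by 0.11 without LPS (adjusted p = 0.0748). Atp6ap1 changed by 0.12 (adjusted p = 0.0782) and 0.06 (adjusted p = 0.433). The changes without LPS passed with a further quantile normalization, at 0.16 for Atp6ap1 and 0.14 for Atp6ap2 (adjusted p = 0.0208 and 0.0204), and with cyclic loess, at 0.18 for each (0.0154 and 0.00514).

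**Figure D3:**
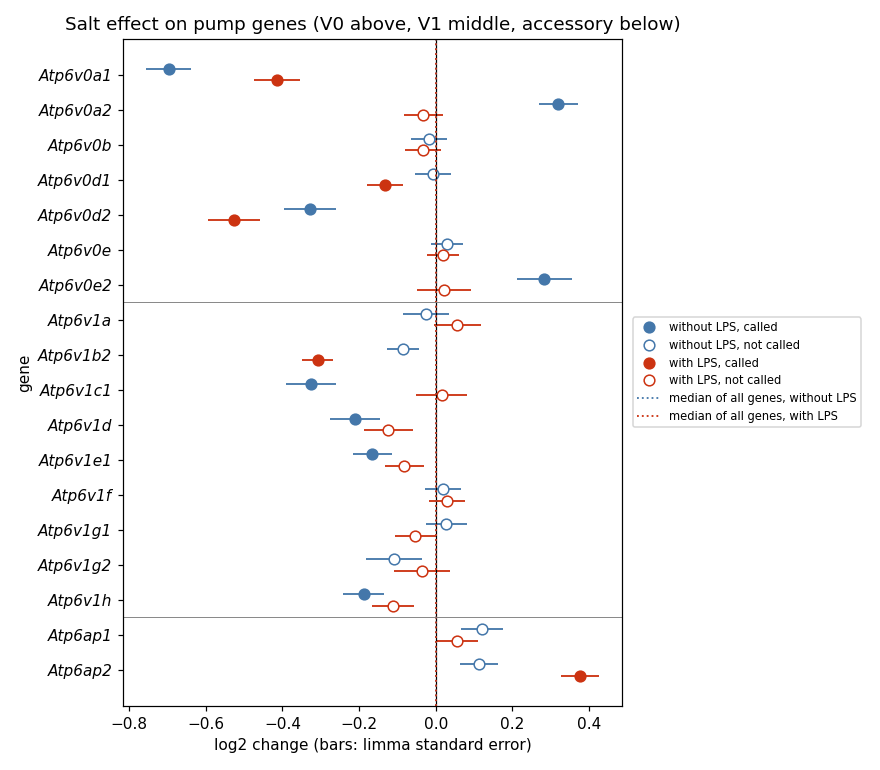
Log2 change with salt (450 minus 290 mOsm) of the 18 tested pump genes without LPS (blue) and with LPS (red), with limma standard errors. Filled points passed the test, and the dotted median of all tested genes lies at 0.00 in both, with Atp6v0a1 farthest to the left without LPS and Atp6v0a2 and Atp6v0e2 to the right.

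Beside these salt values, markers of other cells also differed. The summed neutrophil and osteoclast signals are given above. Of all tested genes 20.6% were higher and 23.7% lower with salt without LPS, and 16.8% and 21.8% with LPS. Of 12 tested macrophage markers 7 were lower and 1 was higher without LPS, and 8 were lower and 0 higher with LPS. This count includes Vsig4, whose mean was below the filter level in both salt groups. The log2 of the summed macrophage list ran from 15.44 to 15.49 at 290 mOsm and from 15.29 to 15.34 at 450 mOsm, and with LPS from 15.43 to 15.48 and from 15.08 to 15.20. Of 6 tested monocyte markers 2 were higher and 2 lower without LPS, and 1 was higher and 3 were lower with LPS. The matrix gene Vcan, for example, had means of 7.10 at 290 mOsm and 9.83 at 450 mOsm, and the secreted protein gene Chil3 11.11 and 8.99. The log2 of the summed mast cell and basophil signal ran from 9.91 to 10.71 at 290 mOsm and from 8.94 to 9.13 at 450 mOsm, and with LPS from 10.26 to 11.21 and from 9.29 to 9.36. At 450 mOsm 7 of these 8 markers had a mean below the filter level, so their changes have no resolved size. The part of these differences in the pump values was not tested.

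The test of whether salt acted differently with and without LPS passed for 5 of the 18 genes. The difference, salt effect with LPS minus that without, was positive for 3 and negative for 2, where 10.7% of all tested genes were positive and 10.4% negative. It was 0.28 ± 0.08 for Atp6v0a1 (limma adjusted p = 0.0216), whose fall with salt was smaller in LPS-treated cells, and 0.34 ± 0.09 for Atp6v1c1 (limma adjusted p = 0.0131), whose fall was found without LPS. For Atp6ap2 it was 0.26 ± 0.07 (limma adjusted p = 0.0111). It was -0.35 ± 0.07 for Atp6v0a2 (limma adjusted p = 0.00142), which rose with salt in untreated cells, and -0.22 ± 0.06 for Atp6v1b2 (limma adjusted p = 0.00981), which fell with salt in treated cells. All 5 differences had 1 sign in 4 of 4 mice. For Atp6v0d2, with -0.20 ± 0.10, the difference did not pass (adjusted p = 0.164).

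These 5 calls rested on all 4 mice to different degrees. That of Atp6v0a2 passed without any 1 mouse, and on its second probe set alone was -0.21 (adjusted p = 0.0501). Without mouse 1 the adjusted p was 0.0809 for Atp6v0a1, 0.0664 for Atp6v1c1, 0.0572 for Atp6ap2 and 0.0617 for Atp6v1b2, and without mouse 2 it was 0.18, 0.052, 0.109 and 0.0649. Without mouse 4 it was 0.0504 for Atp6v0a1 and 0.0643 for Atp6v1b2, and without the array of mouse 2 at 450 mOsm 0.0514 for Atp6v0a1. The call of Atp6v0a1 was lost with no filter (0.0503) and with a further quantile normalization (0.111) too. The number of positive calls was 0 without mouse 1 or mouse 2, and that of negative calls 1 without mouse 1, 2 or 4.

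The membrane sector was then set against the catalytic sector as the median log2 change of the 7 tested V0 genes minus that of the 9 tested V1 genes. This is a description with no test, since genes of a sector are not replicates. Tcirg1, the a3 gene of V0, is not among the 7. Its changes, from -0.02 to 0.06 in the 4 comparisons, do not enter the V0 median. With LPS at 450 mOsm V0 stood 0.24 below V1, with -0.38, -0.28, -0.23 and -0.29 in mice 1 to 4 (SD 0.0655, n = 4). At 290 mOsm the difference was -0.06, with -0.05, -0.12, -0.06 and 0.05 (SD 0.0715), so that the mice lay on either side of 0. For salt it was 0.10 without LPS, with 0.21, 0.09, 0.13 and 0.06 (SD 0.0648), and 0.02 with LPS, with 0.00, -0.00, 0.02 and -0.06 (SD 0.0344). For the salt effect with LPS minus that without, it was -0.20, with -0.20, -0.15, -0.05 and -0.21 (SD 0.0742).

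Members of both sectors spread far wider than these medians. With LPS at 450 mOsm V0 genes ran from -1.24 to -0.12 and V1 genes from -0.52 to 0.50, and the V0 median was -0.34 and the V1 median -0.10. The sector difference also depended on which genes were read and how they were scaled. With a stricter filter it was -0.32 at 450 mOsm and -0.17 at 290 mOsm, with no filter -0.16 at 290 mOsm, and with a further quantile normalization -0.15 at 450 mOsm. For salt with LPS it was -0.03 with either filter, and for salt without LPS it was 0.04 with no filter.

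**Figure D4:**
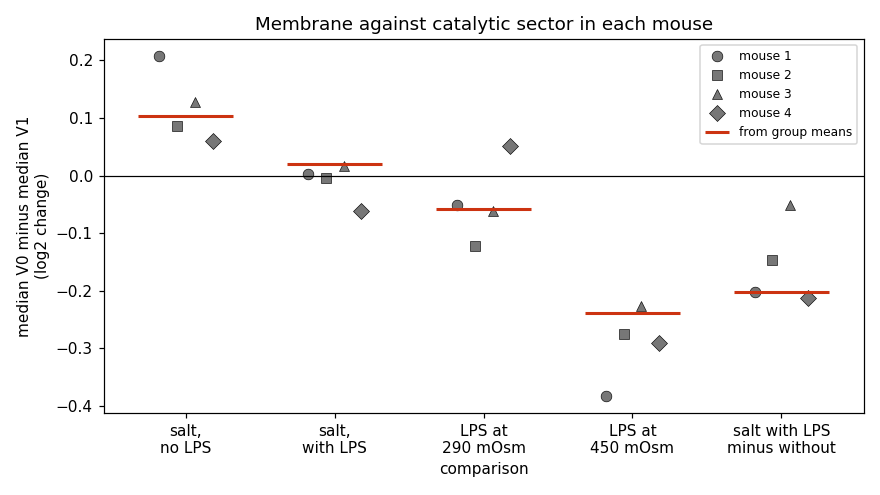
Median log2 change of V0 genes minus that of V1 genes in each of 4 mice (grey shapes) and from the group means (red lines), for the 4 comparisons and for the salt effect with LPS minus that without. With LPS at 450 mOsm all 4 mice lie between -0.38 and -0.23.

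Partners of the pump outside the symbol family were read from lists, whose counts stand beside the shares over all tested genes given above (with LPS 47.1% lower and 26.4% higher at 290 mOsm and 45.3% and 26.4% at 450 mOsm). The RAVE complex, which brings V1 back to V0, and its relatives gave 3 genes lower and 1 higher of 4 with LPS at either osmolarity. Dmxl2 fell by 1.52 ± 0.08 at 290 mOsm (2.88-fold, limma adjusted p = 1.11e-11) and by 1.52 ± 0.08 at 450 mOsm (2.87-fold, limma adjusted p = 1.03e-11). Wdr7, its binding partner, fell by 1.36 ± 0.06 and 1.64 ± 0.06 (2.56-fold and 3.11-fold, limma adjusted p = 7.35e-13 and 5.19e-14). Dmxl1 fell by 0.38 and 0.39, whereas Rogdi rose by 0.65 and 0.31. The measured log2 falls of Wdr7 and Dmxl2 were thus larger than that of any tested pump subunit gene. Very high signals can be compressed, so the ranking holds for measured changes only. With salt 1 of the 4 was higher and 1 lower without LPS, beside 20.6% and 23.7% of all tested genes. In LPS-treated cells 0 were higher and 2 lower, beside 16.8% and 21.8%. Dmxl1 fell with salt by 0.39 without LPS and 0.40 with it. Wdr7 rose by 0.28 without LPS, and Rogdi fell by 0.44 with LPS.

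A list of V0 assembly factors and a related gene had 4 tested members, Vma21, Tmem199, Ccdc115 and Tmem9b. With LPS 3 were lower and 0 higher at 290 mOsm, and 2 were lower and 1 higher at 450 mOsm. Ccdc115 fell by 0.87 ± 0.07 and 0.68 ± 0.07 (limma adjusted p = 1.94e-09 and 5.31e-08). Vma21 fell with salt without LPS by 0.36 ± 0.08 (limma adjusted p = 0.00247) and changed by 0.03 with LPS. Of the 4 tested TLDc proteins, which bind the pump, 2 were lower and 1 higher at each osmolarity. Oxr1 fell by 0.91 and 0.76, and Ncoa7 rose by 0.47 and 0.68.

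The Ragulator and Rag GTPases dock on the pump at the lysosome and relay amino acid supply to mTORC1. Their list also held Slc38a9, Flcn, Fnip1 and Fnip2, genes of lysosomal amino acid sensing. Of its 12 tested genes 10 were lower and 2 higher with LPS at 290 mOsm, with a median of -0.47. At 450 mOsm 10 were lower and 0 higher, with a median of -0.41. Rragd was lower with LPS at both osmolarities, with treated arrays from 6.31 to 6.57, all below the filter level, so that the size of its fall is not resolved. Lamtor4 fell by 1.00 and 1.15 and the amino acid transporter gene Slc38a9 by 1.00 and 0.77. Salt gave 2 higher and 4 lower of the 12 without LPS and 2 and 3 with LPS, where 20.6% of all tested genes were higher and 23.7% lower without LPS and 16.8% and 21.8% with it.

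Ion channels and exchangers of endosomes and lysosomes, with a partner protein, gave 13 tested genes. With LPS 10 were lower at 290 mOsm and 9 at 450 mOsm, with 3 and 4 higher, where 47.1% and 45.3% of all tested genes were lower. The list's median change was -0.64 and -0.46. The cation channel gene Tpcn1 fell by 2.55 ± 0.10 and 2.49 ± 0.10 (5.87-fold and 5.61-fold, limma adjusted p = 6.82e-14 and 9.61e-14), and the endosomal sodium-proton exchanger gene Slc9a9 by 1.63 and 1.99. The arrays of Slc9a9 at 450 mOsm with LPS, from 6.65 to 7.15, lay around the filter level. Those of Tpcn1 in that group, from 6.97 to 7.35, lay close above it. The mucolipin gene Mcoln3 was lower too, with treated arrays from 6.27 to 6.46 at 290 mOsm, all below the filter level, and from 6.75 to 7.04 at 450 mOsm, around it, so that the size of its fall is not resolved. Its relative Mcoln2 rose by 1.19 and 1.53. Clcn7, the chloride-proton exchanger of lysosomes, rose by 0.90 and 0.66. With salt 2 of the 13 were higher and 5 lower without LPS, beside 20.6% and 23.7% of all tested genes. In LPS-treated cells 3 were higher and 4 lower, beside 16.8% and 21.8%. Mcoln3 was also the list's largest salt change without LPS, a rise of 1.08 ± 0.07 (2.12-fold, limma adjusted p = 1.7e-09). Without LPS Tpcn1 fell with salt by 0.46 and Slc9a9 by 0.42.

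The MiT/TFE factors split into pairs with LPS. Tfeb had signals of 9.18, 9.04, 9.28 and 9.27 at 290 mOsm and of 8.42, 8.30, 8.28 and 8.38 with LPS. At 450 mOsm they were 9.25, 9.03, 9.10 and 9.29, and with LPS 7.96, 7.89, 7.88 and 7.90. The untreated groups overlapped, and the treated groups lay below them and apart from each other. It fell with LPS by 0.85 ± 0.06 and 1.26 ± 0.06 (limma adjusted p = 1.04e-09 and 3.73e-12), and salt lowered it by 0.43 ± 0.06 in treated cells (limma adjusted p = 3.7e-05) but changed it by -0.03 in untreated ones, a difference of -0.41 ± 0.09 (limma adjusted p = 0.00317).

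Tfe3 fell with LPS by 0.22 and 0.15, both calls lost with cyclic loess (-0.08 and -0.03). The fall of Tfe3 at 450 mOsm was also lost without mouse 1, 2 or 3 (adjusted p = 0.0936, 0.0995 and 0.0873). Mitf rose by 0.28 and 0.39 and Tfec by 0.43 and 0.18. Both were lower with salt, Mitf by 0.34 without LPS and 0.23 with it, and Tfec by 0.23 and 0.47. Of these, the rise of Mitf at 290 mOsm was lost with a further quantile normalization (adjusted p = 0.0837), that of Tfec at 450 mOsm without mouse 3 (0.0609), the salt fall of Mitf with LPS without mouse 4 (0.0518) and that of Tfec without LPS without mouse 2 (0.0574).

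Lysosomal proteins outside the pump gave 12 lower and 4 higher of 16 tested genes with LPS at 290 mOsm and 11 lower and 4 higher at 450 mOsm, with medians of -0.24 and -0.23, beside -0.11 and -0.09 over all genes tested. The cholesterol transporter gene Npc1 fell by 0.92 and 0.91 and the glucuronidase gene Gusb by 0.86 and 0.97, whereas the autophagy receptor gene Sqstm1 rose by 0.63 and 0.70. With salt 4 of the 16 were higher and 2 lower without LPS, beside 20.6% and 23.7% of all tested genes, and 3 were higher and 5 lower with LPS, beside 16.8% and 21.8%. The protease gene Ctsl had the largest salt change of the list, a fall by 0.49 ± 0.06 without LPS (limma adjusted p = 3.12e-06).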

How the data were processed

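The deposited table gives, for each probe set, a log2 signal that the authors made with RMA in the oligo package, per the submitters' processing notes. No version, filter or build is given in the sources used here. Because RMA scales the arrays to each other, it would hide most of a shift shared by the majority of transcripts. It can compress low and very high signals. The number of arrays limits the precision, and signals of different probe sets are not set against each other. Of 22549 probe sets 20646 carry 1 gene symbol in the platform annotation.

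A group-means model over 4 groups was fitted to 10236 genes with limma 3.58.1 in R 4.3.3 (12 residual degrees of freedom). Its contrasts were salt in cells with and in cells without LPS, LPS at either osmolarity, and the interaction. P-values are two-sided and Benjamini-Hochberg adjusted over all tested genes, and 0.05 was the threshold. The model was tested on simulated arrays. Figures were drawn with matplotlib 3.10.9. Signals on every array are given for members called with an absolute log2 change of at least 0.5 or called in the interaction, and for Tfeb, which was added after its values were seen. Tcirg1 and the MiT/TFE factors are named whatever their result. From each other list the rule takes up to 3 called genes with the largest change per contrast, and the text names part of them. Markers named are examples chosen after their values were seen. Members and lists were chosen with earlier results of these data known.

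Replicate numbers pair the arrays, because arrays of 1 number carry the same mouse identifier in the labels. Deviations from group means correlated within a mouse with r from -0.146 to 0.433 (median 0.0953 over 24 pairs), and between mice with a median of -0.0351. Alternatives were the mouse as a replicate block (fixed or random), no filter or 1 at the 65th percentile, averaging a gene's probe sets, a further quantile normalization, median centring, cyclic loess, array weights, a robust trended variance, fits of only the groups compared, and fits that left out a mouse or an array. Testing every probe set on its own was added after seeing the data.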

Additional observations from a re-analysis of the deposited data

Results flagged for a closer look

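In 3 of 72 sets of 4 arrays, 1 array stood apart from the rest of its group by Dixon's criterion, where chance flags about 1 in 20. Atp6v1c1 had 10.13 in mouse 2 at 450 mOsm with LPS, with the nearest other array at 10.24. Atp6v1d had 10.86 in mouse 1 at 290 mOsm with LPS, with the nearest at 10.65. Atp6v1h had 9.69 in mouse 3 at 450 mOsm, with the nearest at 9.46.

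The salt effect differed between cells with and without LPS, by the interaction test, for Atp6ap2 (0.26), Atp6v0a1 (0.28), Atp6v0a2 (-0.35), Atp6v1b2 (-0.22) and Atp6v1c1 (0.34).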

How the results depend on the processing

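Across 32 settings 2782 values of tested members were recomputed. Of these, 2663 kept their side of the threshold, 96 lost a call, 22 gained one and 1 reversed. The reversed value was Atp6v1f with LPS at 290 mOsm under cyclic loess, at 0.0167. Among the 2663, values that passed kept their direction, but some that did not pass changed sign. Of 48 called values 30 passed in every setting run. The replicate block changed 0 calls (2 genes higher and 6 lower with salt without LPS, as without it). With no filter V0 minus V1 was 0.0368 and -0.0346 for salt in untreated and treated cells and -0.1591 for LPS at 290 mOsm. A stricter filter gave -0.0298 for salt in treated cells, -0.1710 for LPS at 290 mOsm and -0.3175 at 450 mOsm, and 1 gene higher with salt without LPS. These filters change which genes enter the medians. Quantile normalization gave 4 genes higher with salt without LPS and a V0 minus V1 of -0.1519 for LPS at 450 mOsm. Cyclic loess gave 4 higher and 3 lower with salt without LPS. For the LPS effect it gave 8 lower at 290 mOsm and 9 at 450 mOsm, and median centring gave 9 lower at each. The cause was not tested. Without mouse 1, 8 genes were lower with LPS at 290 mOsm. Leaving out 1 mouse or array gave 1 to 3 genes higher and 3 to 6 lower with salt without LPS, and 0 to 3 higher and 1 to 3 lower in the interaction, with fewer arrays in each fit.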
